A study of Homo sapiens with 6 samples.

Results

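The genes described here are 48 enzymes, transporters and regulators of sugar metabolism: glycolysis, gluconeogenesis, glycogen turnover and the pentose phosphate pathway. They were found by symbol in a table of 20289 genes, and all 48 had a row. The libraries held poly(A) RNA of Huh7, a human hepatocellular carcinoma cell line, as 3 libraries of wild-type cells and 3 of cells with UBE2S knocked out, with no other allele or agent named in the labels. The series set out to find what lies downstream of UBE2S, an enzyme that extends ubiquitin chains together with the anaphase-promoting complex. The sources used here do not say how the knockout was made or whether from 1 clone. Nothing in the labels says that replicates were separate cultures, so p-values reflect only how these libraries vary, which may be technical variation.

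Glycolysis splits glucose into pyruvate with a small yield of ATP, and lactate dehydrogenase turns pyruvate into lactate. Hepatocytes can also run the pathway backwards to release glucose, store glucose as glycogen, and divert glucose 6-phosphate into the pentose phosphate pathway for NADPH and ribose. Liver tumour cells commonly replace liver isozymes of these steps with the forms found in most other tissues. UBE2S itself had 6332, 5129 and 6068 counts in wild-type libraries and 1046, 1062 and 1147 in knockout libraries. Every knockout library therefore lay below every wild-type library (log2 fold change -2.29, SE 0.04, edgeR adjusted p = 1.6e-12). What remains of the transcript does not show whether protein was made.

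Library totals ranged from 21840499 to 27910396 estimated counts. The 9 hepatocyte markers checked were all expressed, summing to 18741 to 19320 CPM in wild-type libraries and 17043 to 17266 CPM in knockout libraries, where 6 were lower and 2 higher. Levels are in CPM, the count relative to the TMM-scaled library size. Of the 5 immune markers, CD3E was at 0 and PTPRC below 1 CPM in every library, and the list summed to 290 to 313 CPM in wild-type libraries and 179 to 182 CPM in knockout libraries. Most of that sum was LYZ (280 and 168 CPM). Stromal markers summed to 12.5 to 12.8 and 20.5 to 21.8 CPM in wild type and knockout, with COL1A1, COL3A1 and PDGFRB higher and LUM lower (-2.03). Endothelial markers, with KDR at 0, summed to 5.51 to 6.82 and 2.23 to 2.52 CPM, nearly all of it PECAM1 (5.72 and 2.06 CPM). Cholangiocyte markers summed to 327 to 354 CPM in wild-type libraries and 277 to 283 CPM in knockout libraries. The part of these lists in the results that follow was not tested.

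In the knockout, mRNAs of 11 of the 17 tested glycolytic and lactate enzymes were modestly lower, among them GAPDH, LDHA, HK2 and PFKL. Some less abundant isozymes, the abundant PGAM1 and the glucose transporter gene SLC2A2 were higher. In the pentose phosphate pathway PGLS and TALDO1 were higher and PGD was lower. With the shift of chromosome neighbours removed, as described further on, GPI and ENO1 were called higher, and TPI1 and PGAM1 were not called. Those calls treat the neighbours' shift as known and leave out its own error. Of the 48 genes, 44 passed the filter on low counts, and 14 were called higher and 18 lower (edgeR, adjusted p below 0.05). That is 72.7% of those tested. Over all 13265 tested genes the same rule called 60.1%, with 29.4% higher and 30.7% lower, so being called is common in this comparison. The 2 groups of libraries did not overlap at 34 of the 44 genes (77.3%), against 65.8% of all tested genes. The median log2 fold change of the 44 was -0.07, against -0.001 over all tested genes, and the median size of the change was 0.306 against 0.225. Changes were small: 34 of the 44 were below 0.5 in size and 3 reached 1. These 3 were SLC2A2, PFKFB1, which had few counts, and LDHB, which had few counts and was not called. Wild-type replicate 1 had the lowest TMM factor (0.980, against 1.00 to 1.01 in the others), and without it 13 were higher and 18 lower. Values after ± are the SD over 3 libraries. In such bulk libraries, fewer cells that express a gene and less RNA per cell cannot be told apart.

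**Figure D1:**
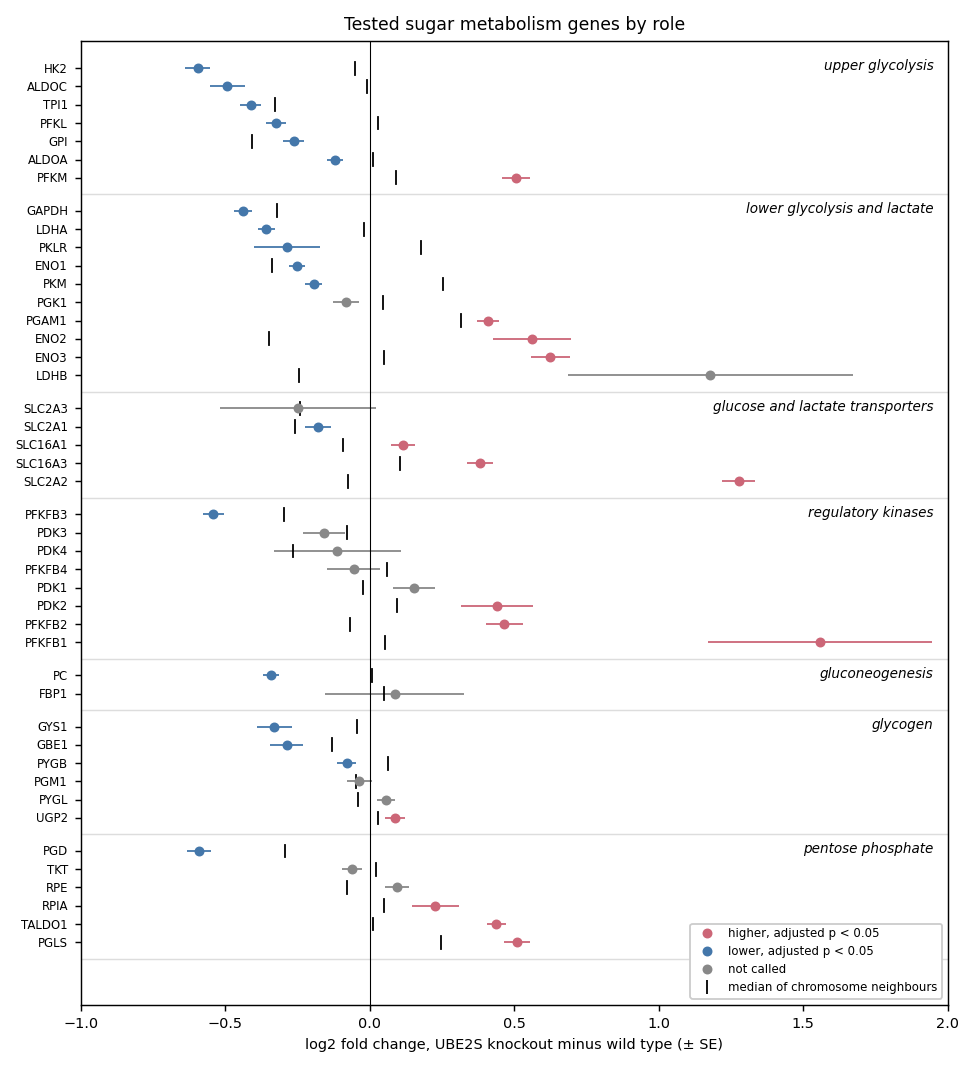
Log2 fold change in the knockout (horizontal axis, points with SE) of the 44 tested genes, grouped by role; colour gives the call at an adjusted p of 0.05 and the black tick the median of the nearest tested genes on the chromosome. Upper glycolysis lies left of 0 except PFKM at 0.51, and SLC2A2 stands far to the right among the transporters at 1.28.

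Summed over the 9 upper and 10 lower glycolytic and lactate genes, the level was 8453, 8339 and 8228 CPM in the wild-type libraries and 7002, 7055 and 7061 CPM in the knockout libraries. The groups did not overlap, and the mean fell by 15.6%. GAPDH made up much of this sum. Without it the sum was 5899 ± 38.1 CPM (SD, n = 3) in wild-type and 5240 ± 16.3 CPM (SD, n = 3) in knockout libraries and fell by 11.2%. The summed pentose phosphate genes fell by 9.71%, a direction set by PGD: the other 5 summed to 325 ± 4.49 CPM in wild-type libraries and 386 ± 2.79 CPM in knockout libraries, 18.8% more. The 7 glycogen genes, by contrast, summed to 592 ± 1.24 CPM in wild-type libraries and 583 ± 7.72 CPM in knockout libraries.

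Many glycolytic promoters carry the core of the hypoxia response element or an E-box, which bind HIF and MYC-type factors, so these letters were looked for in the 250 bases before each start listed by RefSeq (GRCh38.p14). Of the 48 members 43 had at least 1 such window, some with several starts whose windows can lie inside the gene. The letters were ACGTG and GCGTG on both strands, and CACGTG, which contains ACGTG. The first of these was found in 15 of 27 windows of members called lower, in 5 of 27 windows of members called higher and in 21.8% of the windows of tested genes. Among members not called it was in 4 of 14 windows. By gene that is 12 of 18 members called lower, 5 of 12 called higher and 4 of 11 not called. The share by gene over all tested genes was not computed. Windows of 1 gene can overlap, as several of PFKM (called higher) do, so windows are not separate units. CACGTG was in 7 of 27 and 1 of 27 windows, against 8.06%, and GCGTG in 12 of 27 and 7 of 27, against 42.5%. Over all 35116 windows the shares were 18.5% for ACGTG, 32.2% for GCGTG and 6.34% for CACGTG. The median GC content was 69.6% in windows of lower members, 64.4% in those of higher members and 64.0% in those of tested genes. A match describes letters only, and whether any factor binds there was not tested.

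To show what such windows look like, the parts free of annotated exons are printed 5′ to 3′ on the gene's strand for 3 members that fell and hold the letters, and for SLC2A2, which rose, and whose window holds neither. Capitals mark ACGTG or GCGTG on either strand. The PC window shown is chr11:66958384-66958633 (minus strand), that of TPI1 chr12:6867855-6868099 (plus), that of PGD chr1:10398814-10399043 (plus) and that of SLC2A2 chr3:171026751-171026970 (minus).
PC: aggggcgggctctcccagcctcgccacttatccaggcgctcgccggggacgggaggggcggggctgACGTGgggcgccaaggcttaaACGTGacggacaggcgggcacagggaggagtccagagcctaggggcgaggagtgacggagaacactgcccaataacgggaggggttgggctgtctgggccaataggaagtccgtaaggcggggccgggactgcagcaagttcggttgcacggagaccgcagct
TPI1: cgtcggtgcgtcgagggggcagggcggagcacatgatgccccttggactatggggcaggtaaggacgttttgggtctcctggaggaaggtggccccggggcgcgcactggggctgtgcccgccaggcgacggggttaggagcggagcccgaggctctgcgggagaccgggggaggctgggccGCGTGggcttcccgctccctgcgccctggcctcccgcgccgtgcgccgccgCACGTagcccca
PGD: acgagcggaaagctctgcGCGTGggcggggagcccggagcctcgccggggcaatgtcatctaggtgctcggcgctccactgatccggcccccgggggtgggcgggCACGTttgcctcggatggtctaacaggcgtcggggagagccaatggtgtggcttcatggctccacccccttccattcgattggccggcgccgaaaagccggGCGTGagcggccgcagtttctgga
SLC2A2: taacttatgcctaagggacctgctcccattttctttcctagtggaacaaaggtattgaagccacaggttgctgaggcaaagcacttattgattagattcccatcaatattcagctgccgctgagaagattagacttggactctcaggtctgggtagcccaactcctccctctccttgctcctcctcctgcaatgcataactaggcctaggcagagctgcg
The printed windows of PC and TPI1 hold 2 marked matches each and that of PGD 3. PC has 2 further windows and TPI1 1, at other starts, and these hold 0. Matches are no guide to the single gene: PGK1 holds 3 in its window and was not called, and PKM, which fell, holds none. PDK2 and SLC16A3, which rose, each hold 3 in 1 of their windows.

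In upper glycolysis, which phosphorylates glucose and cleaves it into trioses, all 7 tested genes were called, 6 lower and 1 higher, with a median log2 fold change of -0.32. Over all tested genes 60.1% were called, 29.4% higher and 30.7% lower. HK2, the hexokinase that traps glucose in many tumour cells, had 88.0, 98.3 and 92.2 CPM in the wild-type libraries and 62.5, 60.4 and 61.3 CPM in the knockout libraries. It was the largest fall of the role (-0.60, SE 0.04, edgeR adjusted p = 1.4e-07), with no overlap of the groups. Its widespread paralogue HK1 was close to the limit of detection, with 14 counts over the wild-type libraries and 23 over the knockout libraries. The count ratio was 1.81 (95% exact interval 0.891 to 3.8, counting error only), and HK1 did not pass the filter. Per kilobase of exon, HK2 stood at 15.6 CPM and HK1 at 0.0374 CPM in wild type.

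The phosphofructokinases, which commit the sugar to glycolysis, moved in opposite directions. The liver form PFKL had 125, 126 and 121 CPM in wild-type libraries and 97.9, 96.6 and 102 CPM in knockout libraries, a fall of 0.32 (SE 0.03, edgeR adjusted p = 4.1e-06). The muscle form PFKM had 41.9, 45.6 and 46.6 CPM in wild-type libraries and 66.4, 61.7 and 62.5 CPM in knockout libraries, and rose by 0.51 (SE 0.05, edgeR adjusted p = 1.7e-06). PFKM shares exon bases with SENP1 on the opposite strand, whose log2 fold change was 0.14, and reads of the pair cannot be told apart without knowing the strand setting. The platelet form PFKP was barely detected, with 25 counts in wild type and 15 in the knockout (ratio 0.66, 95% interval 0.323 to 1.3), and did not pass the filter.

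Among the aldolases and triose steps, TPI1, which interconverts the trioses, had 689, 634 and 627 CPM in wild-type libraries and 489, 492 and 485 CPM in knockout libraries. Wild-type replicate 1 was the highest library, and the groups did not overlap (-0.41, SE 0.04, edgeR adjusted p = 6.8e-07). ALDOC, the aldolase best known from brain, had 37.7, 34.6 and 33.7 CPM against 24.2, 24.1 and 26.9 CPM in the knockout. It fell by 0.49 (SE 0.06, edgeR adjusted p = 1.8e-05). ALDOA, the ubiquitous form, was the most abundant gene of this role, at 729, 709 and 697 CPM against 650, 656 and 657 CPM, a fall of 0.12 (SE 0.03, edgeR adjusted p = 0.002). GPI, the isomerase after hexokinase, was lower by 0.26 (SE 0.04). When the shift of the genes around it on the chromosome, described further on, was removed, GPI was called higher (0.15) and TPI1 was not called.

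**Figure D2:**
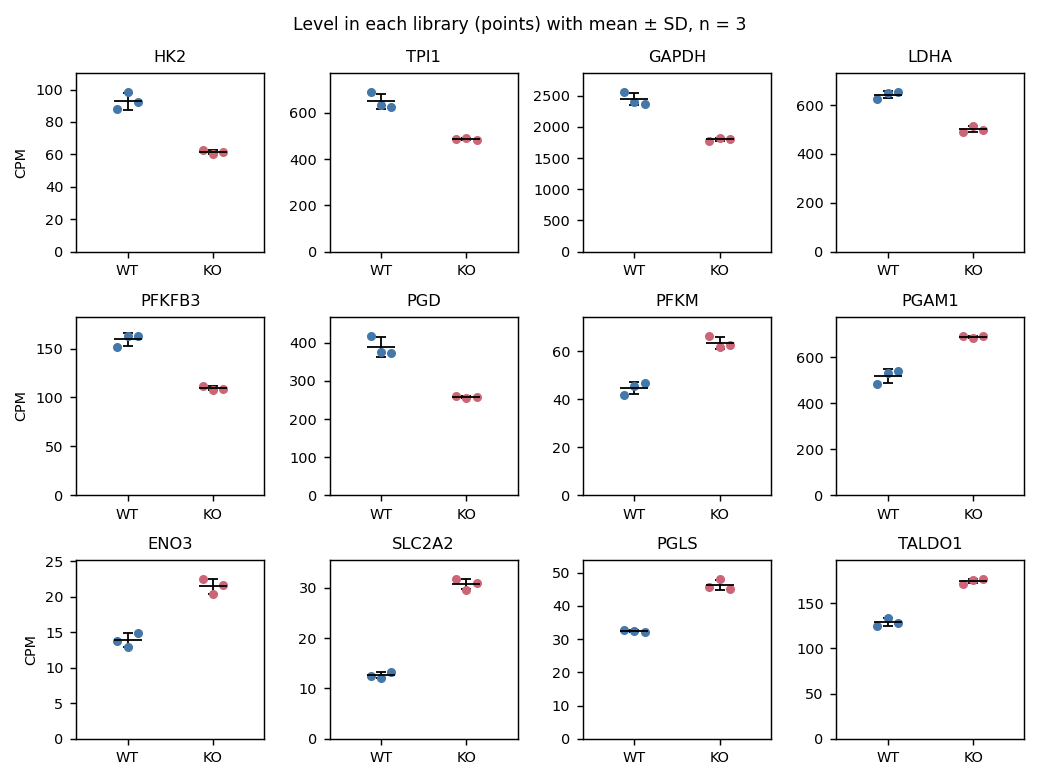
Level in CPM (vertical axes start at 0) of 12 genes in each library, with the mean and SD of 3 wild-type (WT, blue) and 3 knockout (KO, red) libraries. The knockout points lie below the wild-type points for HK2, TPI1, GAPDH, LDHA, PFKFB3 and PGD and above them for the other 6 genes.

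In lower glycolysis and lactate formation, 5 of 10 tested genes fell and 3 rose, against 30.7% lower and 29.4% higher of all tested genes. The 5 that fell included the most abundant ones. GAPDH, which couples the oxidation of triose phosphate to NADH, had 2552, 2403 and 2368 CPM in wild-type libraries and 1776, 1820 and 1803 CPM in knockout libraries. It fell by 0.44 (SE 0.03, edgeR adjusted p = 1.4e-07). The enolase gene ENO1 fell from 1386, 1442 and 1414 CPM to 1182, 1186 and 1195 CPM (-0.25, SE 0.03), and PKM, the pyruvate kinase of most tissues, from 1206, 1172 and 1141 CPM to 1022, 1022 and 1032 CPM (-0.19, SE 0.03). With the shift of its chromosome neighbours removed, ENO1 was called higher (0.08). The table does not separate the PKM1 and PKM2 splice forms. LDHA, which makes lactate, had 626, 647 and 652 CPM in wild-type libraries and 491, 514 and 498 CPM in knockout libraries, with a fall of 0.36 (SE 0.03, edgeR adjusted p = 4.3e-07).

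PKLR, the liver pyruvate kinase, was low, with 5.07, 5.36 and 4.85 CPM in wild-type libraries and 3.77, 4.62 and 4.09 CPM in knockout libraries. Its call was at the threshold (-0.29, SE 0.11, edgeR adjusted p = 0.045) and DESeq2 did not make it (adjusted p = 0.21). It also failed the threshold without any 1 of 5 libraries (adjusted p from 0.053 to 0.15), the exception being knockout replicate 2. PGK1, the kinase between GAPDH and PGAM1, was not called (200 ± 14.9 and 189 ± 2.02 CPM, edgeR adjusted p = 0.14). Its wild-type values were 183, 206 and 211 CPM, and without the lowest of them, replicate 1, it was called lower (-0.14, edgeR adjusted p = 7.2e-06).

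The genes that rose in lower glycolysis were PGAM1, ENO2 and ENO3. PGAM1, the phosphoglycerate mutase gene and the only abundant one among them, had 483, 532 and 541 CPM in wild-type libraries and 693, 684 and 691 CPM in knockout libraries (0.41, SE 0.04, edgeR adjusted p = 1.5e-06). All knockout libraries lay above all wild-type libraries, though the call was lost with the neighbours' shift removed (0.09, adjusted p = 0.054). ENO2, the neuronal enolase, had 2.66, 2.44 and 2.64 CPM against 3.50, 3.72 and 4.20 CPM, and rose by 0.56 (SE 0.13, edgeR adjusted p = 0.0028). ENO3, the muscle enolase, had 13.8, 13 and 14.9 CPM against 22.5, 20.4 and 21.7 CPM, and rose by 0.62 (SE 0.07, edgeR adjusted p = 5.6e-06). ENO3 shares exon bases with the opposite-strand gene PFN1, which is far more abundant (961 CPM in wild type) and fell by 0.22.

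LDHB, the other main lactate dehydrogenase subunit, was almost absent. Its counts were 9, 2 and 31.03 in wild-type libraries, then 32, 29 and 25 in knockout libraries, so the groups overlapped in counts and the wild-type libraries differed widely among themselves. With edgeR it was not called (adjusted p = 0.055), and without wild-type replicate 3 it was (log2 fold change 2.45, adjusted p = 5.9e-04). limma-voom also called it (adjusted p = 0.018). Per kilobase of exon, LDHA stood at 216 CPM and LDHB at 0.320 CPM in wild type.

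Among transporters, SLC2A2 had the lowest adjusted p of the 44 tested members. It encodes GLUT2, the high-capacity glucose transporter of hepatocytes, and had 12.5, 12.1 and 13.3 CPM in wild-type libraries and 31.6, 29.6 and 30.9 CPM in knockout libraries. The groups were far apart (1.28, SE 0.06, edgeR adjusted p = 2.5e-09). SLC2A1, which encodes the widely expressed GLUT1, had 35.1, 35.1 and 34.0 CPM against 30.8, 30.4 and 30.8 CPM, a fall of 0.18 (SE 0.04, edgeR adjusted p = 0.0038). With the neighbours' shift removed it was at 0.08 and not called (adjusted p = 0.14). SLC2A3, for GLUT3, was low, at 1.89, 0.944 and 1.14 CPM against 1.18, 1.2 and 1.00 CPM, and not called.

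Both lactate transporters among the members were called higher, SLC16A1 weakly. SLC16A3, for MCT4, which exports lactate, had 46.8, 51.6 and 50.2 CPM in wild-type libraries and 66.2, 64.6 and 62.6 CPM in knockout libraries (0.38, SE 0.04, edgeR adjusted p = 1.0e-05). It overlaps CSNK1D on the opposite strand, which rose by 0.23. SLC16A1, for MCT1, was the most abundant of the 5 transporter members, with 120, 129 and 136 CPM against 136, 143 and 139 CPM. The highest wild-type library lay above the lowest knockout library, and its call (0.12, SE 0.04, edgeR adjusted p = 0.032) was lost when wild-type replicate 2 or knockout replicate 2 or 3 was left out (adjusted p of 0.064, 0.14 and 0.085). SLC16A7, for MCT2, which is not a member, was at 155 ± 5.41 and 156 ± 3.99 CPM and was not called (edgeR adjusted p = 0.73).

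The regulatory kinases set the flux through phosphofructokinase and into the mitochondrion. The PFKFB enzymes make and break fructose 2,6-bisphosphate, the activator of phosphofructokinase. PFKFB3, a form with strong kinase activity found in tumours, had 152, 163 and 163 CPM in wild-type libraries and 112, 108 and 108 CPM in knockout libraries (-0.54, SE 0.04, edgeR adjusted p = 6.3e-08). PFKFB2 had 13, 12.7 and 14.2 CPM against 18.5, 18.0 and 18.6 CPM, and rose by 0.46 (SE 0.06, edgeR adjusted p = 4.2e-05). PFKFB1, the liver form, rose from very few counts, 4, 5 and 6 in wild-type libraries, to 10, 12 and 19 in knockout libraries, or 3.0 times as many relative to library size (95% exact interval 1.63 to 5.84; edgeR adjusted p = 0.0038). PFKFB4 was not called, at 9.39, 11 and 10.1 CPM against 8.59, 10.4 and 10.2 CPM.

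The PDK genes encode kinases that shut off pyruvate dehydrogenase. PDK2 had 2.85, 2.70 and 2.75 CPM in wild-type libraries and 3.64, 3.98 and 3.66 CPM in knockout libraries, and rose by 0.44 (SE 0.12, edgeR adjusted p = 0.0083; adjusted p = 0.082 with DESeq2). PDK1, PDK3 and PDK4 were not called, with edgeR adjusted p of 0.086, 0.08 and 0.68, the last at 0.955 to 1.37 CPM. PDK1 had 12.2, 13.8 and 11.8 CPM against 13.8, 14.2 and 13.8 CPM in the knockout, and PDK3 had 12.9, 12.7 and 11.7 CPM against 11.4, 11.5 and 10.6 CPM.

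Of the gluconeogenic genes, PC was the only abundant one. Pyruvate carboxylase, its product, makes oxaloacetate from pyruvate. It had 370, 384 and 381 CPM in wild-type libraries and 303, 298 and 295 CPM in knockout libraries (-0.34, SE 0.03, edgeR adjusted p = 4.5e-07). FBP1, which bypasses phosphofructokinase in the reverse direction, was at 1.45 ± 0.319 and 1.51 ± 0.397 CPM and was not called. PCK1, the cytosolic carboxykinase regarded as a control point of the pathway, had 4, 5 and 4 counts in wild-type libraries, then 1, 0 and 0 in knockout libraries. It did not pass the filter, and its knockout to wild-type count ratio was 0.0846 (95% interval 0.00199 to 0.563).

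In sum the glycogen genes changed little, but 4 of the 6 tested were called, 3 lower and 1 higher. That is 66.7%, against 60.1% of all tested genes. GYS1, the widespread glycogen synthase, fell from 46.3 ± 3.32 to 36.9 ± 2.41 CPM (-0.33, SE 0.06, edgeR adjusted p = 4.6e-04) and GBE1, the branching enzyme, from 26.4 ± 1.1 to 21.6 ± 1.11 CPM (-0.29, SE 0.06, edgeR adjusted p = 8.6e-04). GYS2, the liver synthase, had 5 counts in wild type and 9 in the knockout and did not pass the filter. UGP2, which makes UDP-glucose and was the most abundant of the role in the knockout, had 159, 162 and 171 CPM against 175, 178 and 170 CPM, with overlapping groups. The brain phosphorylase PYGB, the most abundant in wild type, had 165, 170 and 165 CPM against 162, 153 and 157 CPM. The call of UGP2 (0.09, edgeR adjusted p = 0.048) and that of PYGB (-0.08, edgeR adjusted p = 0.044) were at the threshold, and DESeq2 made neither (adjusted p of 0.083 and 0.12). UGP2 held its call without wild-type replicate 3 only (adjusted p of 0.012, otherwise 0.058 to 0.18), and PYGB without wild-type replicate 1 or knockout replicate 1 only (0.0062 and 0.038, otherwise 0.054 to 0.21). The liver phosphorylase PYGL and the mutase PGM1 were not called; PYGL had 152, 143 and 145 CPM against 154, 152 and 152 CPM in the knockout, and PGM1 at 41.7 ± 1.31 and 40.6 ± 0.915 CPM.

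The pentose phosphate pathway split within its oxidative arm. PGD, the dehydrogenase that yields NADPH and ribulose 5-phosphate, had 418, 375 and 373 CPM in wild-type libraries and 261, 255 and 259 CPM in knockout libraries (-0.59, SE 0.04, edgeR adjusted p = 1.1e-07). PGLS, the lactonase directly before it, had 32.7, 32.5 and 32.2 CPM against 45.5, 47.9 and 45.1 CPM, a rise of 0.51 (SE 0.04, edgeR adjusted p = 6.8e-07). In the non-oxidative arm, which returns pentoses to glycolysis, TALDO1 (transaldolase) had 125, 133 and 128 CPM against 172, 175 and 176 CPM, a rise of 0.44 (SE 0.03, edgeR adjusted p = 1.9e-07). Its partner TKT (transketolase) was at 101 ± 1.63 and 96.6 ± 3.06 CPM and not called, as was the epimerase gene RPE (45.6 ± 0.226 and 48.7 ± 1.43 CPM, edgeR adjusted p = 0.061). The isomerase gene RPIA was higher (0.23, SE 0.08, edgeR adjusted p = 0.028), a call DESeq2 did not make (adjusted p = 0.059) and that was lost without wild-type replicate 1 (0.14, adjusted p = 0.078), knockout replicate 1 or knockout replicate 2 (adjusted p of 0.059 and 0.13).

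Because 2 genes are counted in the same library, their ratio does not depend on library scaling, and it was computed for 14 isozyme or family pairs. With 3 libraries against 3 the exact two-sided permutation test cannot go below p = 0.10, which becomes 0.12 when adjusted over the 14 pairs; the pairs described next reached that value unless another is given. The log2 ratio of PFKM to PFKL was -1.58, -1.46 and -1.38 in wild-type libraries and -0.56, -0.65 and -0.71 in knockout libraries, a difference of 0.83. That of SLC2A2 to SLC2A1 was -1.49, -1.53 and -1.35 in wild-type libraries and 0.04, -0.04 and 0.00 in knockout libraries, a difference of 1.46. In counts, SLC2A2 thus stood well below SLC2A1 in wild type and level with it in the knockout.

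PFKFB2 to PFKFB3 shifted by 1.01 (from -3.58 ± 0.085 to -2.57 ± 0.027, mean ± SD, n = 3), ENO3 to ENO1 by 0.88 and ENO2 to ENO1 by 0.81. ENO1 nevertheless remained the dominant enolase, at 494 CPM per kilobase in the knockout against 13.5 for ENO3. ALDOC to ALDOA moved by -0.37, PDK3 to PDK1 by -0.31 and PYGB to PYGL by -0.14. PDK2 to PDK1 moved by 0.29, SLC16A3 to SLC16A1 by 0.26 and PFKFB4 to PFKFB3 by 0.48. Part of some shifts was shared by the genes around each pair: the difference between the median log2 fold changes of their chromosome neighbours was 0.36 for PFKFB4 and PFKFB3, 0.39 for ENO3 and ENO1, 0.20 for SLC16A3 and SLC16A1, 0.23 for PFKFB2 and PFKFB3, 0.18 for SLC2A2 and SLC2A1 and 0.12 for PDK2 and PDK1. LDHB to LDHA differed by 2.29, but its wild-type SD was 1.84. The ratio of PKLR to PKM (-0.11, exact permutation p = 0.40, adjusted 0.43) and that of SLC2A3 to SLC2A1 (0.02, exact permutation p = 1) overlapped between the groups.

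**Figure D3:**
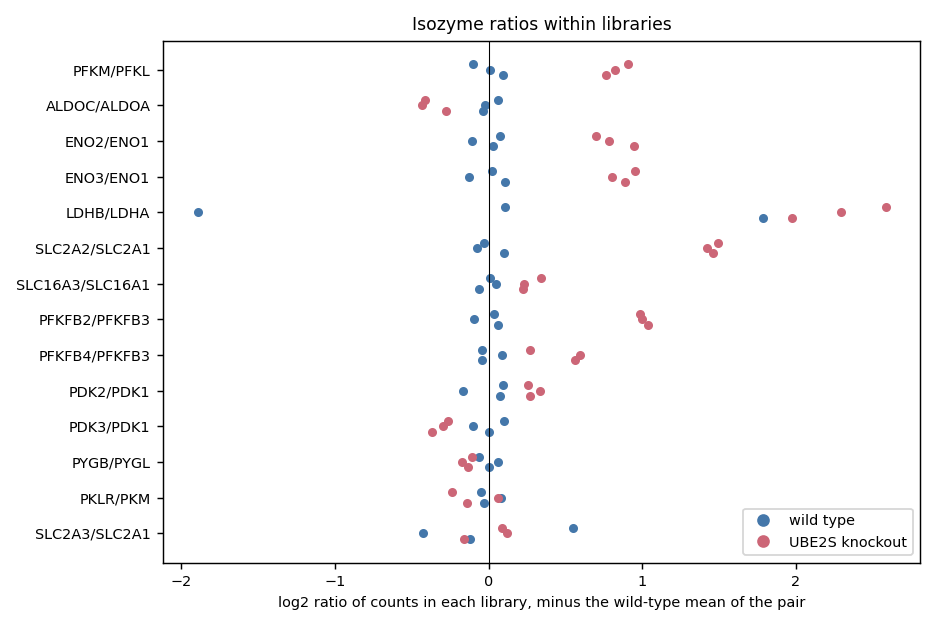
Log2 ratio of the counts of 2 related genes in each library, minus the wild-type mean of that pair (horizontal axis), for 14 pairs; blue points are wild-type and red points knockout libraries. SLC2A2/SLC2A1 moved by 1.46, PFKFB2/PFKFB3 by 1.01 and PFKM/PFKL by 0.83 with no overlap, whereas the wild-type libraries of LDHB/LDHA spread widely.

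Several members lie in stretches of chromosome whose other genes moved the same way: the neighbourhood shift was at least 0.2 in size for 14, and 11 of these had its sign. SLC2A3 and PDK4, both not called, are among the 11. How often a gene has the sign of its neighbourhood over all tested genes was not computed. For each gene the median log2 fold change of the 25 tested genes on either side was taken as the shift of its neighbourhood. Across the 44 tested members, the member's log2 fold change and that median had a Pearson r of 0.26 and a Spearman rho of 0.36, given as a description, since neighbouring members share neighbours. On the short arm of chromosome 12 lie GAPDH (6533927 to 6538374), TPI1 (6867119 to 6870948) and ENO2 (6913745 to 6923698; GENCODE 29, GRCh38), with neighbourhood medians of -0.32, -0.33 and -0.35. On chromosome 1, ENO1 (8861000 to 8879250) and PGD (10398592 to 10420144) had medians of -0.34 and -0.29, and SLC2A1 -0.26. GPI on chromosome 19 had -0.41, and PGAM1 on chromosome 10 had 0.32.

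With this shift taken off in the edgeR fit, GPI was at 0.15 and ENO1 at 0.08, both called higher (adjusted p of 0.0042 and 0.017), the opposite of their direction without it. The shift entered the fit as a fixed value, although it is a median estimated from the same libraries. Every adjusted p with the shift removed therefore leaves out the error of that median, and calls gained or reversed this way are less certain than they look. SLC2A1 was at 0.08 and not called (adjusted p = 0.14), and TPI1 (-0.08, adjusted p = 0.06) and PGAM1 (0.09, adjusted p = 0.054) were not called either. GAPDH was at -0.12 (adjusted p = 0.0065), PGD at -0.30 and PFKFB3 at -0.24, all still called lower. PGLS, whose neighbours had a median of 0.25, was at 0.26 and still called higher. ENO2 and PKM had moved against their neighbours, and with the shift removed ENO2 was at 0.91 and PKM at -0.45. PKLR (-0.46), SLC16A1 (0.21) and PYGB (-0.14) also moved away from 0, and GBE1 (-0.16) towards it, all still called. PGK1 (-0.13, adjusted p = 0.03), RPE (0.17, adjusted p = 0.0032), PYGL (0.10, adjusted p = 0.02) and LDHB (1.42, adjusted p = 0.027) gained a call, and RPIA and UGP2 lost theirs (adjusted p of 0.083 and 0.18). After this subtraction 16 members were called higher and 15 lower, against a background of 54.5% of all tested genes called, and the median of the 44 was 0.047 in place of -0.07.

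Other members changed where their neighbours as a group hardly did. HK2 (chromosome 2, 74833981 to 74893359), LDHA (chromosome 11, 18394388 to 18408425), ALDOC, PFKL, PC, TALDO1 (chromosome 11, 747329 to 765024), ENO3 and SLC2A2 (chromosome 3, 170996348 to 171026750) had neighbourhood medians under 0.1 in size. There were 27 such members, of which 10 were called higher and 8 lower, 66.7% in all, near the 60.1% of all tested genes.

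**Figure D4:**
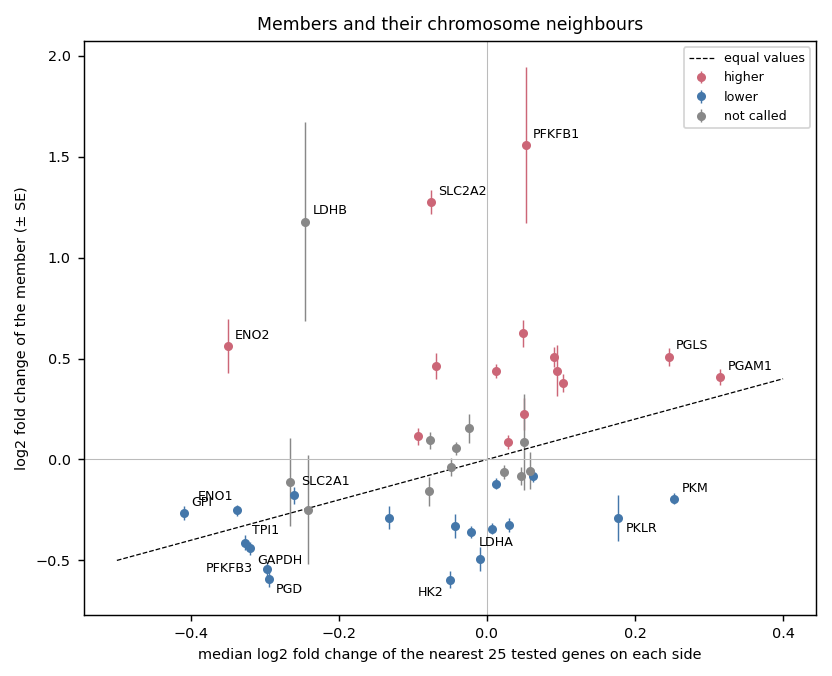
Log2 fold change of each of the 44 tested members (vertical axis, with SE) against the median log2 fold change of its nearest 25 tested genes on each side (horizontal axis); the dashed line marks equal values. TPI1, GAPDH, ENO1 and GPI lie near the line at lower left, PGAM1 near it at right, while SLC2A2, HK2 and LDHA lie far from it at neighbourhood medians near 0.

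Beyond the 48, a wider list of 97 genes of the same pathways was measured, of which 72 passed the filter, 20 were called higher and 27 lower, 65.3% in all, near the 60.1% of all tested genes (29.4% higher and 30.7% lower). The counts for the smaller lists below are to be read against the same shares. Other isozymes moved as follows. HKDC1, a hexokinase-like gene, rose from 1.82 ± 0.154 to 5.50 ± 0.284 CPM (1.59, SE 0.13, edgeR adjusted p = 3.8e-07), with a neighbourhood median of 0.51. TIGAR, a fructose bisphosphatase that lowers glycolytic flux, fell from 21.2 ± 0.981 to 12.6 ± 1.36 CPM (-0.75, SE 0.08; -0.41 with its neighbours' shift removed), and ADPGK rose by 0.20, against -0.08 with its neighbours' shift removed.

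Among other transporters 2 of 10 tested were higher and 4 lower. SLC2A6, which encodes a lysosomal hexose transporter, fell from 89.5 ± 3.66 to 47.6 ± 2.19 CPM (-0.91, SE 0.04, edgeR adjusted p = 4.9e-09). MPC2, a subunit of the carrier that takes pyruvate into mitochondria, fell from 225 ± 8.74 to 138 ± 3.04 CPM (-0.71, SE 0.03), while its partner MPC1 was not called (0.02, adjusted p = 0.75). With the neighbours' shift removed MPC1 was called lower too (-0.25, adjusted p = 3.7e-04). BSG, the chaperone of the lactate transporters, was at -0.41. With its neighbours' shift removed BSG was at 0.07, the opposite direction, and not called (adjusted p = 0.058). SLC2A4 (1.45, SE 0.27) and SLC2A8 (0.29, SE 0.05), for GLUT4 and GLUT8, rose.

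The pyruvate dehydrogenase complex, which the PDK enzymes inhibit, had 4 of 8 genes lower and 2 higher. PDHA1, its catalytic subunit, fell from 110 ± 3.67 to 63.0 ± 0.514 CPM (-0.80, SE 0.04, edgeR adjusted p = 2.3e-09), more than any of the 44 tested members; with its neighbours' shift removed it was at -0.48. The phosphatase gene PDP2 fell (-0.46, SE 0.07), PDHX was lower by 0.17, and DLAT (0.20) and PDPR (0.25) were higher.

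Of other gluconeogenic genes, G6PC3 rose by 0.28 (SE 0.05). PCK2, the mitochondrial carboxykinase, was at -0.12 (edgeR adjusted p = 0.029), a call lost with DESeq2 (0.099) and in 4 of the 6 fits with 1 library left out: without wild-type replicate 2 or 3 (0.063 and 0.096) and without knockout replicate 2 or 3 (0.15 and 0.084). With its neighbours' shift removed, PCK2 was called higher (0.30, adjusted p = 6.9e-05). Other glycogen genes were called higher at 7 and lower at 6 of 20. PPP1R3C, which targets a phosphatase to glycogen, fell (-0.77, SE 0.09), as did the phosphorylase kinase subunit PHKA2 (-0.55, SE 0.05; -0.22 with its neighbours' shift removed). PPP1R3E was at -0.45 (SE 0.16, edgeR adjusted p = 0.031), a call lost with DESeq2 (adjusted p = 0.16) and with the neighbours' shift removed (-0.07, adjusted p = 0.75). It was also lost without wild-type replicate 1 or 2 (0.083 and 0.086) or knockout replicate 2 or 3 (0.055 and 0.12). PGM2L1 (0.61, SE 0.07) and NHLRC1 (1.02, SE 0.26) rose. PPP1R3G, with 32 counts in wild type and 66 in the knockout, was called higher (1.17, SE 0.41, edgeR adjusted p = 0.024), but not with DESeq2 (0.062), without wild-type replicate 1 (0.71, adjusted p = 0.074) or without knockout replicate 1 or 2 (adjusted p of 0.08 and 0.074). Of other pentose phosphate genes, H6PD, which makes NADPH in the endoplasmic reticulum, was at -0.28 (SE 0.03). With its neighbours' shift removed H6PD was at 0.06, the opposite direction, and not called (adjusted p = 0.16).

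Of 20 tested regulators 6 were higher and 8 lower. TXNIP, an inhibitor of glucose uptake that is itself induced by glucose, fell from 6.13 ± 0.498 to 2.75 ± 0.331 CPM (-1.16, SE 0.13, edgeR adjusted p = 5.5e-06). MLXIPL, the glucose-responsive factor ChREBP that acts on TXNIP and PKLR, fell from 12.3 ± 0.589 to 6.21 ± 0.782 CPM (-0.99, SE 0.09). The coactivator gene PPARGC1A, an inducer of gluconeogenesis, fell (-0.64, SE 0.12). The insulin receptor gene INSR (0.48, SE 0.03), FOXO1 (0.29, SE 0.07) and IRS1 (0.20, SE 0.04) were higher.

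Some values are less certain than their SE shows. Estimated counts were not whole numbers in at least 1 library for 11 members, and in every library for ALDOA, PKLR and SLC16A3. In GENCODE, 23 of the 48 members share exon bases with a gene on the opposite strand. Besides ENO3, such a partner was more abundant than the member for PFKFB2, PKLR, PFKM and SLC16A3, among others. PFKFB2 (13.3 CPM in wild type) overlaps YOD1 (39.3 CPM), and PKLR (5.09 CPM) overlaps HCN3 (8.08 CPM). YOD1 and HCN3 were not called. SENP1 (50.8 CPM in wild type, against 44.7 for PFKM) and CSNK1D (197 CPM, against 49.5 for SLC16A3) were called higher, as were these 2 members. Whether shared reads contribute to those rises was not tested.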

How the data were processed

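RNA was measured in 3 wild-type and 3 UBE2S knockout libraries of Huh7 cells, grouped and numbered by their titles. Per the labels' protocols, oligo(dT) beads selected the mRNA and libraries came from an NEBNext Ultra kit. The tools listed in the submitters' processing notes, without their roles, are DESeq2, HISAT2, Bowtie2 2.2.8 and StringTie 1.3.1. The values deposited by the authors are estimated counts for each gene, not normalized. The sources used here do not give the counting program, its annotation, the genome build or the strand setting. Reads of the processed pseudogenes known for several glycolytic genes may have been shared, dropped or kept.

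Counts were rounded, filtered by filterByExpr (minimum count 10), scaled by TMM and compared with edgeR 4.0.16 quasi-likelihood tests in R 4.3.3, with Benjamini-Hochberg adjustment over all 13265 tested genes and a threshold of 0.05. The SE was derived from the log2 fold change and its F statistic. Positions and exon lengths came from GENCODE release 29 (99.4% of genes matched by identifier). Alternatives were other scalings and filters, DESeq2 1.42.0, limma-voom (limma 3.58.1), a replicate block, leaving out each library, a stricter threshold, a minimum fold and subtraction of the neighbours' median. Library totals set the counting precision; intervals on count ratios cover counting error only.

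The members and lists were chosen with earlier results of these data known. All 48 members are reported. Values per library are given for members called with a log2 fold change of at least 0.4, for the most abundant member of a role and for isozyme pairs. Of other pathway genes, up to 3 called per direction and list are named, except some that are not reported here; MPC1, SLC16A7, AKT2, DLD and the pentose phosphate sum without PGD were added after values were seen.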

Additional observations from a re-analysis of the deposited data

How the results depend on the processing

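Leaving out 1 library at a time gave 11 to 15 members called higher and 16 to 18 lower, 19 to 22 and 23 to 29 of the other pathway genes, and 7142 to 8457 of all tested genes called. Against a minimum fold of 1.2, 10 of the 44 tested members were called higher and 8 lower. Of the 72 other pathway genes tested, 6 were called higher and 12 lower. Over all 13265 tested genes, 3474 were called in either direction. No member changed direction under another scaling, filter or tool where either fit called it. The subtraction of the neighbours' median reversed GPI (0.15), ENO1 (0.08), SLC2A1 (0.08), ADPGK (-0.08), BSG (0.07), PCK2 (0.30) and H6PD (0.06), and, of the other called pathway genes, AKT2 (-0.22 to 0.17) and DLD (-0.14 to 0.07). The SLC2A3/SLC2A1 ratio, with a difference of 0.02 in all libraries, ranged from -0.20 (without wild-type replicate 2) to 0.29 with 1 library left out, and was also negative without wild-type replicate 3 (-0.05) and knockout replicate 1 (-0.02) or 2 (-0.04). With the replicate number as a block, 14 members were higher and 17 lower, against 14 and 18 without it. Deviations of same-numbered libraries correlated at 0.0241, -0.0369 and 0.0173. These values show no pairing by replicate number, but cannot settle whether such libraries share a culture or day. Genes under about 1 CPM (HK1, PFKP, PCK1, GYS2, LDHB, PFKFB1) are limited by depth.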
